A study of Homo sapiens with 12 samples.

Results

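The change in translational efficiency (TE) after knockdown of IGF2BP3 was measured for 11785 protein-coding genes that were expressed in both assays, out of 58721 genes in the deposited files and 19850 protein-coding genes among them. TE is the level of ribosome-protected fragments (RPF) over the level of Input RNA, and the TE change is the log2 RPF change minus the log2 RNA change, siIGF2BP3 against siControl. The cells were HepG2, an established human liver cancer line. They were transfected with a control siRNA (siControl) or with an siRNA against IGF2BP3 (siIGF2BP3) and were lysed 2 days later, after 4 min with 100 µg/mL cycloheximide, a drug that holds cytosolic ribosomes on their mRNA. Each condition gave 3 Input and 3 RPF libraries, 12 libraries in 4 groups. The knockdown is transient and partial, and the labels do not say whether the 3 libraries of a group came from separate cultures, so p-values measure the spread between these libraries, which may be technical.

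Ribosomes load on mRNAs with unequal efficiency, and a transcript can gain or lose ribosomes without a change in its own abundance. IGF2BP3 is an oncofetal RNA-binding protein that binds modified mRNAs and is known for its effects on mRNA stability and translation. mRNAs of ribosomal proteins and of several translation factors start with a run of pyrimidines (the 5′ terminal oligopyrimidine, or 5′TOP, motif) through which their translation is controlled as a group, whereas the 13 proteins encoded by mitochondrial DNA (mtDNA) are made by separate ribosomes inside mitochondria. When RNA and footprint changes cancel each other, the TE change opposes the RNA change, which is called buffering.

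The libraries held 11219750 to 14797573 counts in Input and 13036423 to 31510601 in RPF. One library, siIGF2BP3 RPF replicate 1, stood apart from the other libraries of its group. Compared with the other libraries of its group it gave a mean chi-square per protein-coding gene of 15.3 and 17.1, and those differed from each other by 1.26, where 1 is sampling noise. It was also the shallowest RPF library. Results are therefore given with and without it. When it is left out, the siIGF2BP3 RPF group has 2 libraries that differ by little more than sampling noise, so the larger counts of calls in that setting rest on a nearly technical spread. siControl RPF replicates 2 and 3 differed by less than the sampling noise over all genes (0.941) and were counted as 1 sample in the group means of named genes. They may be repeat deposits of 1 library, although over protein-coding genes alone the value was 1.06. The tests, the RPF/Input ratio over all libraries and the deviations from the assay mean treat them as 2 libraries. Counts of calls with these libraries summed are given as well. TE changes are relative to the typical gene, because a change shared by all transcripts is removed by the scaling, and a change in the number of cells cannot be told apart from one in RNA per cell. Hepatocyte markers were present in all libraries (ALB at 8168 CPM or more, AFP at 7133 or more; CPM is the count scaled to library size with normalisation factors). Of 10 markers of blood, fibroblast and endothelial cells the leukocyte gene PTPRC, the T-cell gene CD3E and the fibroblast gene COL3A1 were at 0 in all Input libraries, and the highest was PDGFRB with at most 9.34 CPM.

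IGF2BP3, the knockdown's target, fell in both assays. Its Input level was 135, 132 and 130 CPM in siControl replicates 1, 2 and 3 and 102, 97.5 and 104 CPM in siIGF2BP3. Its RPF level was 82.1, 87.3 and 86.7 CPM in siControl and 25.4, 31.3 and 28.3 CPM in siIGF2BP3. The groups did not overlap in either assay, and the fall was larger in footprints. IGF2BP3 thus had the largest TE fall among the named genes, with a log2 TE change of -1.19 ± 0.09 (SE, edgeR adjusted p = 4.65e-07). Its exons overlap MALSU1 on the other strand, and the strand setting of the counting was not given. The paralogues IGF2BP1 and IGF2BP2 did not pass the TE test, with log2 changes of -0.03 ± 0.07 and -0.04 ± 0.07. Without siIGF2BP3 RPF replicate 1 their TE changes were -0.09 ± 0.05 and -0.08 ± 0.05, which did not pass either. In that setting IGF2BP1 fell in footprints (log2 RPF change -0.17 ± 0.02, edgeR adjusted p = 0.000764), where 12.9% of members fell, and IGF2BP2 did not pass.

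Among all members 99 genes rose in TE (0.840% of those tested) and 170 fell (1.44%) at an adjusted p of 0.05 by edgeR's quasi-likelihood test of the interaction. The median log2 TE change of the members was 0.01. Without siIGF2BP3 RPF replicate 1, 557 genes rose (4.73%) and 704 fell (5.97%), and these included all 269 of the first set. In 557 genes (4.73%) every siIGF2BP3 ratio of RPF to Input was above every siControl ratio, and in 672 (5.70%) every one was below. With siControl RPF replicates 2 and 3 summed, 132 of the 269 were called. The median SE of the log2 TE change of a single gene was 0.12.

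With all libraries, rises and falls in TE were made up differently. The 99 genes that rose had a median log2 TE change of 0.45, with a median RPF change of 0.30 and a median RNA change of -0.09. The 170 genes that fell had a median log2 TE change of -0.44, with a median RPF change of -0.22 and a median RNA change of 0.23. Footprint gain thus made up most of the median rise, while footprint loss and transcript gain had about equal parts in the median fall. When siIGF2BP3 RPF replicate 1 was left out this difference was smaller. The medians were 0.15 (RPF) and -0.12 (RNA) for the genes that rose, and -0.19 (RPF) and 0.19 (RNA) for those that fell. The RPF part was the larger in 75 of 99 rises and 86 of 170 falls with all libraries. Without that library it was the larger in 307 of 557 rises and 360 of 704 falls. TE and RNA changes use the same Input libraries, so error in an Input library moves both.

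The 12 largest TE rises among called genes with a mean of at least 5 CPM in each assay were those of SMIM15, ZNF91, MTFMT, CYP2S1, MT-ND6, DSC2, ZBTB20, ZNF714, DESI2, AP1AR, MTX3 and MT-ND4L, with log2 changes from 1.09 (SMIM15) to 0.66 (MT-ND4L). SMIM15 encodes a small integral membrane protein. Its footprints were at 17.5, 18.2 and 17.9 CPM in siControl and 47.8, 45.5 and 47.1 CPM in siIGF2BP3, while its Input was at 59.3, 55.1 and 56.7 and at 72.3, 68.0 and 70.0 CPM. Both rose (log2 RPF change 1.38, RNA change 0.29), and no siControl library overlapped a siIGF2BP3 library. DSC2 encodes desmocollin 2, a cadherin of desmosomes. Its RPF level went from 56.5, 55.8 and 56.9 CPM to 101, 114 and 117 CPM on an Input of 57.4, 57.6 and 55.7 against 68.1, 64.2 and 66.8 CPM. Its log2 TE change was 0.75 ± 0.09 (edgeR adjusted p = 0.000103). DESI2, which encodes a deSUMOylating peptidase, rose in footprints on a level transcript. Footprints of DESI2 went from 12.4, 12.9 and 12.1 to 21.7, 21.3 and 19.1 CPM, with a log2 RNA change of 0.00 ± 0.06. ZBTB20, a transcriptional repressor of hepatocytes, and the KRAB zinc finger genes ZNF91 and ZNF714 had few footprints (under 10 CPM in every library) and rose by 0.75, 0.83 and 0.74. Their siControl RPF means were under the 5 CPM asked of the mean over both conditions, so they were named only because they are higher after knockdown. MTFMT, which formylates the initiator methionyl-tRNA of mitochondria, had a log2 TE change of 0.82 ± 0.16, with an RPF change of 0.61. CYP2S1 and ZNF714 were not called when siControl RPF replicates 2 and 3 were summed (edgeR adjusted p = 0.054 each), and the other 10 were.

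The 12 largest falls were those of IGF2BP3, FOS, NABP1, TET3, SIK1, LMBR1L, TBC1D25, POU2AF3, FHIP2A, HAL, CPEB4 and GRAMD2B. TET3, a 5-methylcytosine dioxygenase, had 6.77, 6.44 and 7.12 RPF CPM in siControl and 3.82, 3.33 and 3.91 CPM in siIGF2BP3. Its Input did not pass the test (log2 RNA change -0.07 ± 0.07), and its log2 TE change was -0.82 ± 0.14 (edgeR adjusted p = 0.0028). HAL, which starts histidine breakdown in liver, went from 12.7, 12.4 and 12.2 to 6.67, 7.96 and 7.30 RPF CPM on an RNA change of -0.02 ± 0.07. For CPEB4, a cytoplasmic polyadenylation element-binding protein, the log2 RPF change was -0.89 ± 0.10 and the TE change -0.73 ± 0.13. These genes lost footprints on a transcript that did not pass the RNA test. TET3, FOS, NABP1 and POU2AF3 had RPF means under 5 CPM after knockdown and met that minimum only through siControl, and TBC1D25 met it in Input only through siIGF2BP3. NABP1, a single-strand DNA-binding protein, and GRAMD2B differed from them, as their RNA rose as well (log2 0.33 and 0.37). The calls of LMBR1L and GRAMD2B (edgeR adjusted p = 0.054 each) and of TBC1D25 and POU2AF3 (0.0876 each) were lost when siControl RPF replicates 2 and 3 were summed.

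The 13 mtDNA-encoded genes, which code for subunits of respiratory complexes I, III, IV and V, were the list with the highest TE change. All 13 rose in TE, where 0.840% of members rose. Their log2 changes ran from 0.44 (MT-ND2) to 0.78 (MT-ND6), with a median of 0.53 against 0.01 for all members. Their summed Input level was 20833, 20922 and 21420 CPM in siControl and 15709, 17177 and 17105 CPM in siIGF2BP3. Their summed RPF level was 4668, 4950 and 4890 CPM in siControl and 5325, 5958 and 5698 CPM in siIGF2BP3. The groups did not overlap in either assay, with lower transcripts and higher footprints after knockdown. All 13 fell in RNA (median log2 change -0.31, where 2.26% of members fell), and the median RPF change was 0.22. Footprints rose past the test for 5 of them with all libraries, MT-ND3, MT-ATP8, MT-CO1, MT-ND4L and MT-ND6 (0.798% of members), and for 13 without siIGF2BP3 RPF replicate 1 (8.04%). RPF calls depended on single libraries, with 203 protein-coding genes called with all of them and 4 to 8 with any siControl RPF library left out. MT-CO1, the catalytic subunit of cytochrome c oxidase, had 5537, 5594 and 5557 Input CPM in siControl and 4125, 4473 and 4353 CPM in siIGF2BP3. Its footprints were at 1250, 1357 and 1344 CPM and at 1593, 1649 and 1587 CPM, and its log2 TE change was 0.66 ± 0.06 (edgeR adjusted p = 1.56e-05). The 13 TE calls were made with each of the 12 libraries left out in turn, with siControl RPF replicates 2 and 3 summed, with an offset for exon length or exon GC, and by DESeq2. They were not made by limma on log2 ratios, which called 0 protein-coding genes. MT-ND4 and MT-ND4L overlap on the same strand, so their reads are in part shared, and the strand setting of the counting was not given. These mRNAs are read by ribosomes inside mitochondria, whereas the drug used holds cytosolic ribosomes. The part of this in the values was not tested.

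The TE changes of cytosolic ribosomal protein genes were smaller and nearly all above 0. Of 84 genes tested, 14 rose and 0 fell (0.840% and 1.44% of members), with RPLP2 and RPL12 among those that rose. The median log2 TE change was 0.21, and 82 of the 84 had a change above 0. Their summed Input level was 59234, 65804 and 62168 CPM in siControl and 56200, 58385 and 57950 CPM in siIGF2BP3. Their summed RPF level was 24143, 24568 and 24722 CPM in siControl and 27133, 26347 and 26108 CPM in siIGF2BP3. All siIGF2BP3 sums lay below the siControl sums in Input and above them in RPF, although siIGF2BP3 Input replicate 2 and siControl Input replicate 1 were close. RPLP2, a stalk protein of the large subunit, had 1434, 1707 and 1617 Input CPM in siControl and 1331, 1347 and 1279 CPM in siIGF2BP3. Its RPF level was 516, 506 and 512 CPM in siControl and 647, 555 and 546 CPM in siIGF2BP3. The log2 TE change of RPLP2 was 0.45 ± 0.09 (edgeR adjusted p = 0.0109). The number called depended on the libraries. It was 49 without siIGF2BP3 RPF replicate 1 (4.73% of members rose there), 2 (RPL12 and RPLP2) with siControl RPF replicates 2 and 3 summed, and 2 to 15 with another library left out, while the median lay between 0.18 and 0.25 under the alternatives run for the lists.

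**Figure D1:**
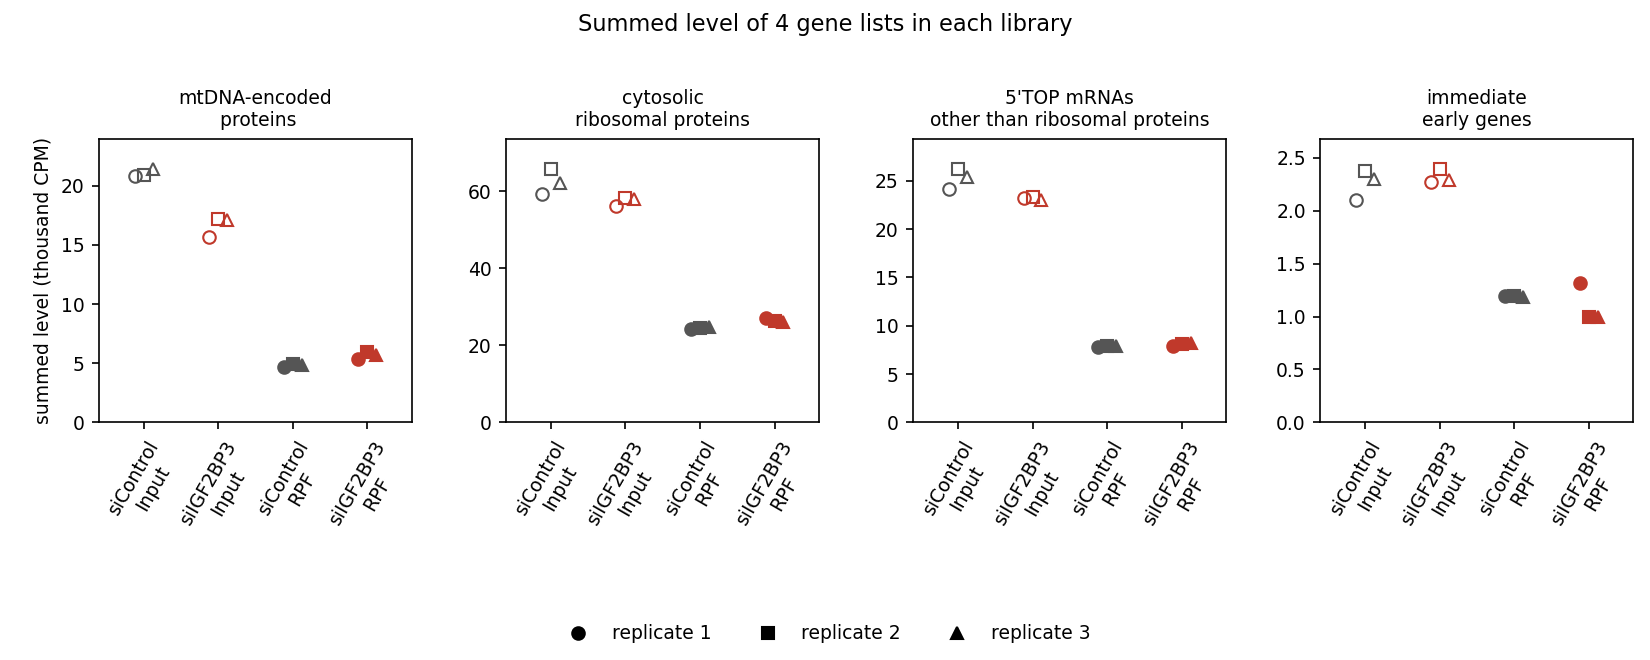
Summed level of 4 gene lists, in units of 1000 CPM, in each of the 12 libraries (open marks Input, filled marks RPF, grey siControl, red siIGF2BP3; the mark's shape gives the replicate number). The mtDNA-encoded sum is lower in all siIGF2BP3 Input libraries and higher in all siIGF2BP3 RPF libraries, and the immediate early sum of siIGF2BP3 RPF replicate 1 (1314 CPM) lies above the siControl libraries while replicates 2 and 3 (991 and 999 CPM) lie below them.

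The median change of other mRNAs known to carry a 5′TOP motif was lower. Of 23 such genes that encode no ribosomal protein, 1 rose and 0 fell (0.840% and 1.44% of members). The median log2 TE change was 0.14, and 21 of 23 were above 0. Their summed Input was 24092, 26205 and 25327 CPM in siControl and 23215, 23355 and 23002 CPM in siIGF2BP3, and their summed RPF 7772, 7889 and 7903 against 7942, 8074 and 8161 CPM. Neither assay's groups overlapped, and the difference was larger in Input than in RPF. The gene called was TPT1, which encodes the translationally controlled tumour protein. TPT1 Input was at 1898, 2200 and 1997 CPM in siControl and 1654, 1664 and 1667 CPM in siIGF2BP3. Its footprints were at 305, 314 and 319 CPM in siControl and 330, 348 and 335 CPM after knockdown, and its log2 TE change was 0.40 ± 0.07 (edgeR adjusted p = 0.00441). With siIGF2BP3 RPF replicate 1 left out, 11 of the 23 rose (4.73% of members).

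The first bases of the annotated mRNAs are shown for the 4 ribosomal protein genes with the largest called TE change, for TPT1, and for MRPS18A, the called gene among mitochondrial ribosomal proteins. Each line gives 5 bases before and 20 bases from the annotated transcript start, and capitals mark a pyrimidine run that begins with C at that start (RefSeq, GRCh38.p14).
RPLP2 (chr11:809962-809986, plus strand): gccttCCTTTTCCTCCCTgtcgcca
RPL22L1 (chr3:170870176-170870200, minus strand): gcttcCTCTCTgctctcgcggccga
RPL7L1 (chr6:42879611-42879635, plus strand): gcgccgtagctaggagcggacgcca
RPL12 (chr9:127451387-127451411, minus strand): tccggCCTCTCggctttcggctcgg
TPT1 (chr13:45341164-45341188, minus strand): tcggcCTTTTCCgcccgctcccccc
MRPS18A (chr6:43687772-43687796, minus strand): agggtaggtttttgaagatggcggc

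RPLP2, RPL22L1, RPL12 and TPT1 start with 6 to 13 pyrimidines, whereas RPL7L1 and MRPS18A hold no such run at the annotated start. RPL7L1 is a ribosomal protein-like factor of ribosome assembly. Its log2 TE change was 0.37 ± 0.08, made up of an RPF change of 0.42 with an RNA change of 0.07, unlike RPLP2, RPL12 and TPT1, whose RNA fell by 0.27, 0.21 and 0.30 on the log2 scale. A start of C followed by 4 bases that are each C or T, on the transcript's strand and at the first annotated base only, was held by 1104 of 27305 genes in the table (4.04%). It was held by 44 of 68 matched ribosomal protein genes (64.7%) and by 13 of 16 genes of the other 5′TOP list (81.2%). Of the 9402 members matched by symbol, 9318 belonged to neither list, and 466 of these (5%) held the start. Their median log2 TE change was 0.03, against 0.01 for those without it. Within the ribosomal protein list the medians were 0.22 with and 0.19 without the start. A pyrimidine run beside the annotated start was not counted, so this comparison cannot separate genes with a 5′TOP motif from genes without one.

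Nuclear genes for mitochondrial proteins and for protein folding lay on the same side with few calls. The 79 mitochondrial ribosomal proteins had a median log2 TE change of 0.11, with 1 rise (MRPS18A, 0.47 ± 0.11, not called with siControl RPF replicates 2 and 3 summed) and 0 falls, and the 81 nuclear-encoded subunits of oxidative phosphorylation had a median of 0.09 with 0 calls in either direction by edgeR (12 rises and 1 fall at an unadjusted p under 0.05, 6 rises and 1 fall without siIGF2BP3 RPF replicate 1, 3 rises by DESeq2). Of all 11785 members, 1926 had an unadjusted p under 0.05 in either direction. By adjusted p 0.840% of members rose and 1.44% fell, or 4.73% and 5.97% without siIGF2BP3 RPF replicate 1. In both lists the RNA side carried the median, at -0.10 and -0.09 in RNA and 0.00 and -0.03 in RPF. Both lists hold genes of short merged exon length (median 2539 and 2475 bases), and the shortest quintile of members by exon length had a median log2 TE change of 0.09. With the offset for exon length the medians of the 2 lists were 0.07 and 0.05. The 45 ER folding and translocation genes had a median of 0.08 and 0 falls, and the 1 gene that rose was HSPA5 (BiP, the main Hsp70 of the ER). Its Input was at 1257, 1418 and 1362 CPM in siControl and 1102, 1135 and 1073 CPM in siIGF2BP3, whereas its RPF level was 4948, 5078 and 5087 CPM against 5199, 5026 and 5105 CPM. The footprints of HSPA5 overlapped between the groups while its transcript was lower in every siIGF2BP3 library, giving a log2 TE change of 0.31 ± 0.07 (edgeR adjusted p = 0.0167, and 0.0538 with siControl RPF replicates 2 and 3 summed).

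**Figure D2:**
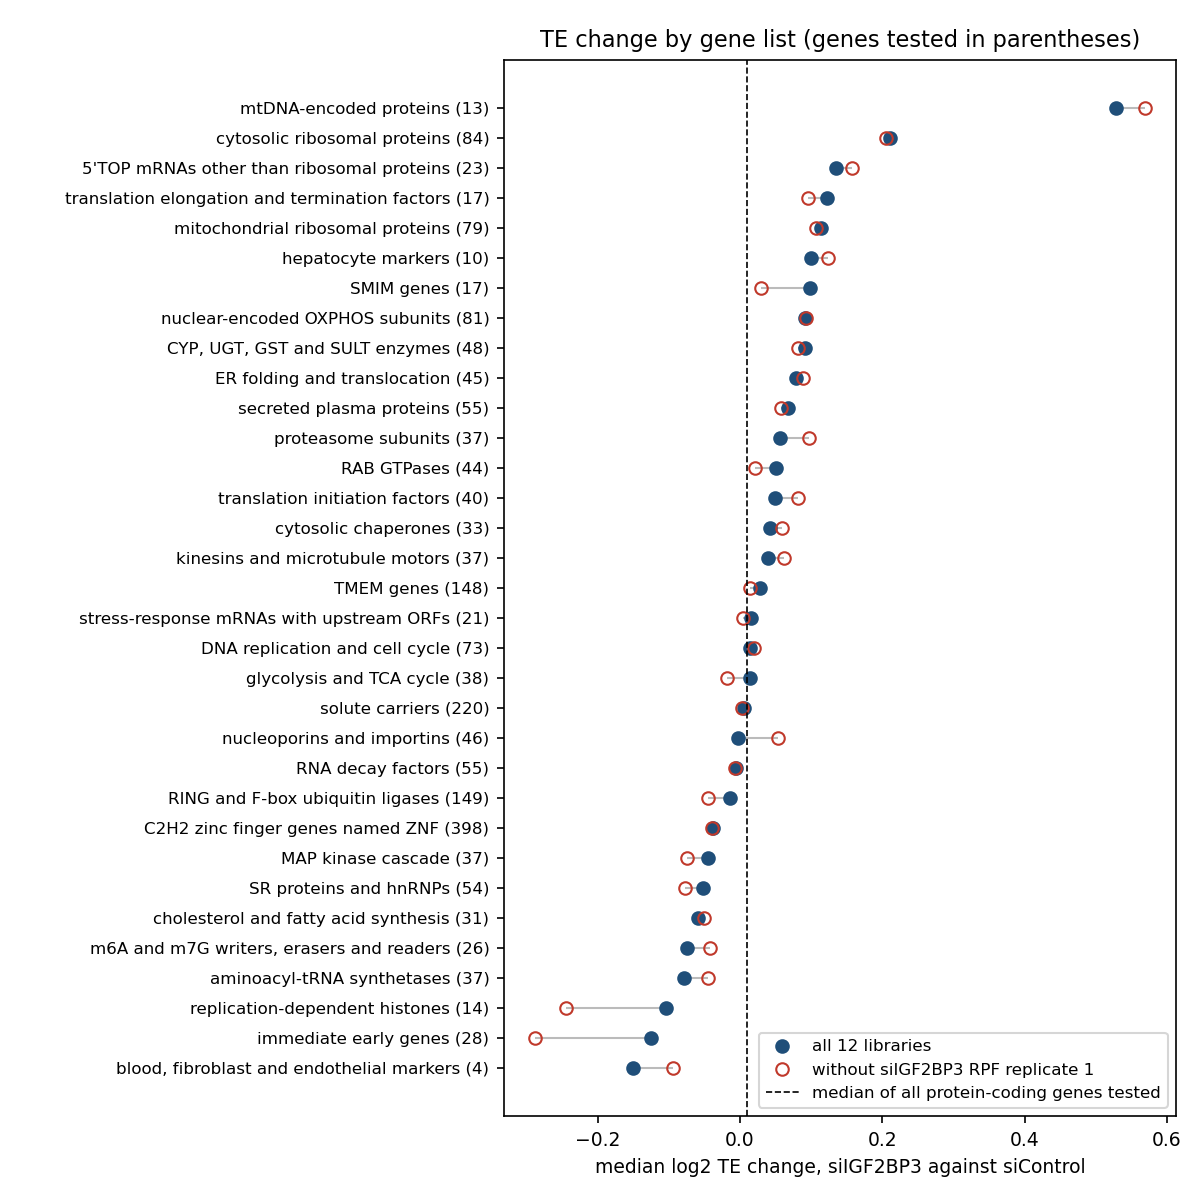
Median log2 TE change of each gene list (x axis), with all 12 libraries (filled) and without siIGF2BP3 RPF replicate 1 (open); the dashed line is the median of all protein-coding genes tested (0.01). mtDNA-encoded proteins (0.53) and cytosolic ribosomal proteins (0.21) lie highest in both settings, and immediate early genes move from -0.13 to -0.29 when that library is left out.

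Immediate early genes, which respond to growth factors and stress with short-lived mRNAs, lay on the other side. Of 28 genes tested 0 rose and 2 fell (0.840% and 1.44% of members), FOS and SIK1, and the median log2 TE change was -0.13. FOS, a subunit of the AP-1 transcription factor, had 6.36, 6.86 and 7.01 RPF CPM in siControl and 4.53, 4.30 and 4.13 CPM in siIGF2BP3. Its Input was at 7.62, 9.99 and 8.87 CPM and at 9.87, 10.7 and 11.6 CPM. The FOS footprints did not overlap, its Input groups did, and its log2 TE change was -0.92 ± 0.17 (edgeR adjusted p = 0.00611). SIK1, a salt-inducible kinase, had 27.9, 28.5 and 27.5 RPF CPM in siControl and 18.8, 12.9 and 13.4 CPM in siIGF2BP3, on an Input of 30.7, 34.1 and 29.6 against 26.0, 30.7 and 29.5 CPM. Its log2 TE change was -0.81 ± 0.15 (edgeR adjusted p = 0.00635). The list as a whole depended on 1 library. Its summed RPF level was 1196, 1197 and 1185 CPM in siControl and 1314, 991 and 999 CPM in siIGF2BP3, whereas its summed Input (2101 to 2376 CPM and 2271 to 2393 CPM) overlapped. Without siIGF2BP3 RPF replicate 1 the median was -0.29, 10 of the 28 fell in TE (5.97% of members), among them JUN (-0.60) and DUSP6 (-0.40), and 18 fell in RPF (12.9%). JUN encodes a partner of FOS and DUSP6 a phosphatase of ERK, and with all libraries their log2 TE changes were -0.40 ± 0.18 and -0.29 ± 0.11, which did not pass the test.

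Falls were also found among splicing factors, and single RNA decay genes fell. Of 54 SR proteins, hnRNPs and related splicing factors 5 fell and 0 rose (1.44% and 0.840% of members), with a median log2 TE change of -0.05. SF3B1, the branch-site recognition protein of the U2 snRNP, had 1138, 1203 and 1172 Input CPM in siControl and 1450, 1422 and 1387 CPM in siIGF2BP3. SF3B1 footprints were at 534, 545 and 542 CPM in siControl and 436, 512 and 522 CPM in siIGF2BP3. Its transcript rose and its footprints were lower in each siIGF2BP3 library, with a log2 TE change of -0.42 ± 0.08 (edgeR adjusted p = 0.00652). CLK1, an SR protein kinase, TRA2A and SRSF5 had log2 TE changes of -0.43, -0.38 and -0.31 and RNA rises of 0.23, 0.22 and 0.23. With siControl RPF replicates 2 and 3 summed 1 of the 5 calls was made, that of SF3B1. Among 55 RNA decay factors PAN2 (a deadenylase subunit) and DCP1A (a decapping cofactor) fell by 0.56 and 0.36 on the log2 scale. The decay list as a whole had a median log2 TE change of -0.01, with 26 of the 55 above 0. Among 26 writers, erasers and readers of m6A and m7G (median -0.07) the 1 call was METTL3, the m6A methyltransferase, which fell by 0.33. With siControl RPF replicates 2 and 3 summed the calls of DCP1A (edgeR adjusted p = 0.0873) and METTL3 (0.0682) were lost. PAN2 shares exonic sequence with CNPY2 and METTL3 with TOX4, so reads of these genes may be mixed.

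RNF4, a SUMO-targeted ubiquitin ligase, was among the falls with the smallest p. Its RPF level was 67.9, 70.9 and 70.1 CPM in siControl and 44.2, 45.1 and 47.7 CPM in siIGF2BP3, whereas its Input was at 66.7, 72.2 and 70.3 and at 75.4, 74.1 and 73.1 CPM. The footprints were lower in every siIGF2BP3 library (log2 RPF change -0.62 ± 0.05), and the log2 TE change was -0.69 ± 0.08 (edgeR adjusted p = 0.000103). TMEM63A, an osmosensitive channel of membranes, showed the reverse composition. Its Input was at 53.0, 54.8 and 52.9 CPM in siControl and 74.8, 75.7 and 76.1 CPM in siIGF2BP3, and its RPF level was 39.9, 41.5 and 42.2 CPM against 39.9, 40.6 and 39.7 CPM. Its log2 TE change was -0.53 ± 0.08 (edgeR adjusted p = 0.00108). Exons of RNF4 overlap FAM193A and those of TMEM63A overlap EPHX1, so reads may be shared.

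Transcript length was the class along which the TE change was graded. Members were divided into quintiles of 2357 genes by merged exon length. The median log2 TE change was 0.09 in the shortest quintile (105 to 2856 bases), then 0.03, 0.01 and -0.03, and -0.05 in the longest quintile (8193 to 46064 bases). In the shortest quintile 30 genes rose and 7 fell, and in the longest 19 rose and 67 fell. The median of genes with short merged exons thus lay above that of the typical gene and the median of genes with long merged exons below it. Both assays took part. The median RNA change went from -0.06 to 0.03 and the median RPF change from 0.03 to -0.02 between the shortest and the longest quintile. In RNA, 18 of the shortest quintile rose and 103 fell, whereas 181 of the longest quintile rose and 18 fell.

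Each library has its own length contrast, the median deviation of the longest quintile from the mean of the assay minus that of the shortest. It was -0.02, -0.07 and -0.04 in siControl Input and 0.08, 0.03 and 0.02 in siIGF2BP3 Input, so these groups did not overlap. It was 0.02, 0.04 and 0.02 in siControl RPF and -0.14, 0.01 and 0.03 in siIGF2BP3 RPF. The RPF part of the trend thus lay in siIGF2BP3 RPF replicate 1, and the Input part separated the groups. Without that library the median TE change went from 0.05 to -0.04 over the quintiles. The TE change by exon length (longest minus shortest, -0.136) lay between -0.155 and -0.091 when any 1 library was left out. It was negative in each tercile of exon GC (-0.07, -0.16 and -0.18) and of Input level (-0.12, -0.14 and -0.14). An offset that removes each library's trend on length took the contrast to -0.019, as it was built to do.

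Coding length gave a similar gradient, from 0.09 in genes with at most 723 coding bases to -0.07 in those with 2475 or more, with 35 rises and 8 falls in the shortest quintile against 15 and 70 in the longest. When the lists of ribosomal, mitochondrial ribosomal, oxidative phosphorylation and mtDNA-encoded genes were left out, the shortest coding quintile (2169 genes) still had a median of 0.08. Within terciles of 3′ UTR length the coding-length contrast was -0.15, -0.13 and -0.13. Within terciles of coding length the 3′ UTR contrast was -0.05, -0.03 and 0.00, and with siIGF2BP3 RPF replicate 1 left out it was -0.03, 0.00 and 0.04. The coding-length contrast was then -0.15, -0.11 and -0.10. The gradient on coding length was therefore present at each 3′ UTR length in both settings, whereas that on 3′ UTR length was not.

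**Figure D3:**
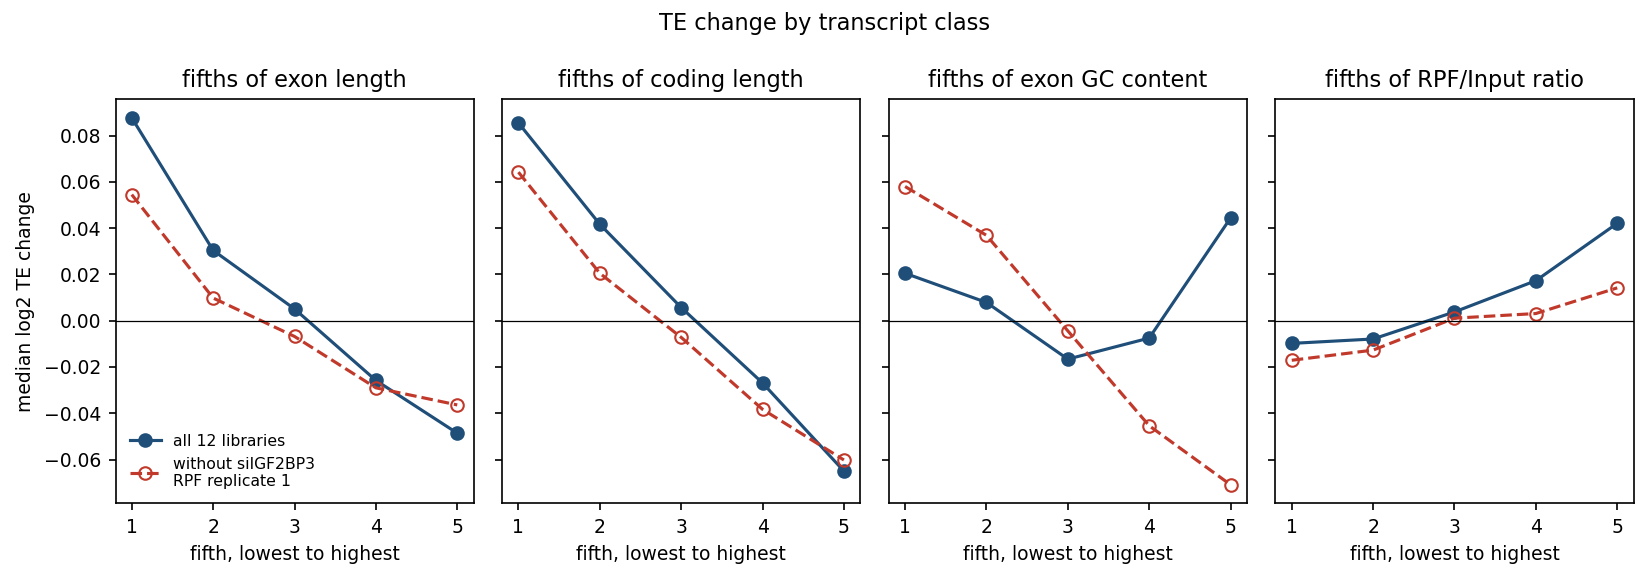
Median log2 TE change in quintiles of exon length, coding length, exon GC content and the RPF/Input ratio (2357 genes each, lowest to highest), with all 12 libraries (filled) and without siIGF2BP3 RPF replicate 1 (open). The length gradients keep their sign in both settings, while the highest GC quintile goes from 0.04 to -0.07.

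Exon GC gave opposite pictures with and without 1 library. With all libraries the medians from the lowest quintile (31.1% to 41.0% GC) to the highest (57.9% to 73.8%) were 0.02, 0.01, -0.02, -0.01 and 0.04. With siIGF2BP3 RPF replicate 1 left out they went from 0.06 through 0.04, 0.00 and -0.05 to -0.07, with 216 rises and 79 falls in the lowest quintile and 38 and 189 in the highest. The GC contrast of that library was 0.38, whereas replicates 2 and 3 of its group had -0.10 and -0.14 and the siControl RPF libraries -0.05, -0.05 and -0.04. In Input, siIGF2BP3 replicate 1 (-0.07) also lay apart from replicates 2 and 3 (0.08 and 0.07) of its group. No direction for GC can be read from these data without choosing between these libraries.

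**Figure D4:**
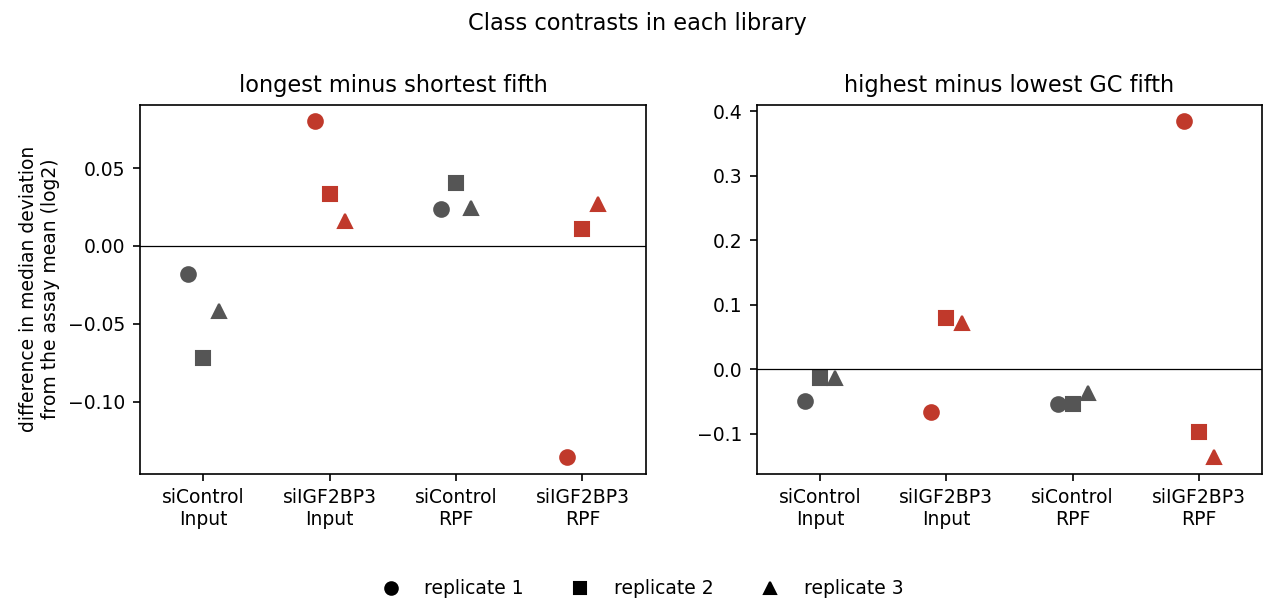
Difference in median log2 deviation from the assay mean between the highest and the lowest quintile of exon length (left) and exon GC (right), 1 point per library (grey siControl, red siIGF2BP3; the mark's shape gives the replicate number). siIGF2BP3 RPF replicate 1 lies at -0.14 for length and 0.38 for GC, away from the other 2 libraries of its group, while the length contrast separates the Input groups.

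The baseline ratio of RPF to Input, taken over all 12 libraries so that neither condition sets it, bore little relation to the median change. Medians went from -0.01 in the lowest quintile to 0.04 in the highest with all libraries, and from -0.02 to 0.01 without siIGF2BP3 RPF replicate 1. With quintiles set from the siControl libraries alone the contrast was 0.01. Calls were nonetheless more common at low ratios, with 46 rises and 74 falls in the lowest quintile and 7 rises and 6 falls in the highest. The median Input level was 5.89 log2 CPM in the lowest quintile and 3.82 in the highest, so the number of calls moved with transcript abundance, and its part in the difference was not tested.

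RNA and RPF changes were measured in separate libraries and can be set against each other. Of the members, 477 rose (4.05%) and 266 fell (2.26%) in RNA. Over these 743 genes the median log2 RPF change in the direction of the RNA change was 0.02, where the median size of the RNA change was 0.26. A line through them had a slope of 0.137 log2 RPF per log2 RNA (Pearson r 0.20, across genes, which are not independent replicates), and 0.124 without IGF2BP3. A slope of 1 would mean that footprints follow the transcript. The RPF change had the opposite sign in 320 genes, the same sign but less than 50% of the size in 238, 50% to 150% of the size in 163 and more in 22. Most RNA changes were thus not met by an equal footprint change. These genes were chosen by their RNA change, so a larger RNA than RPF change follows in part from the choice. The median SE of these genes was 0.06 in RNA and 0.07 in RPF. RPF passed the test in the same direction for 23 and in the opposite direction for 7 of the 743 (94 members rose in RPF, 0.798%, and 104 fell, 0.882%), counts that rest on the unstable RPF calls given above.

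The directions were also taken apart. Among genes that rose in RNA the slope was 0.03 and the median RPF change in that direction 0.00. Among genes that fell in RNA the slope was 0.19 and the median 0.05, and the difference was not tested. With siIGF2BP3 RPF replicate 1 left out the slopes were 0.00 and 0.35, and 0.10 over both, with 156 genes called in RPF in the same direction as in RNA and 101 in the opposite one. Taking 1 RPF library at a time for its group, the slope was 0.13 to 0.14 for the siControl libraries and 0.21, 0.12 and 0.08 for the siIGF2BP3 libraries. It was below 0.25 under each alternative run. Among the 21 genes with an RNA change of at least 0.58 the slope was 0.01, and 0.11 without siIGF2BP3 RPF replicate 1. Over all 11785 members the slope was 0.139. Error in the RNA change flattens such a slope, and its part was not tested.

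**Figure D5:**
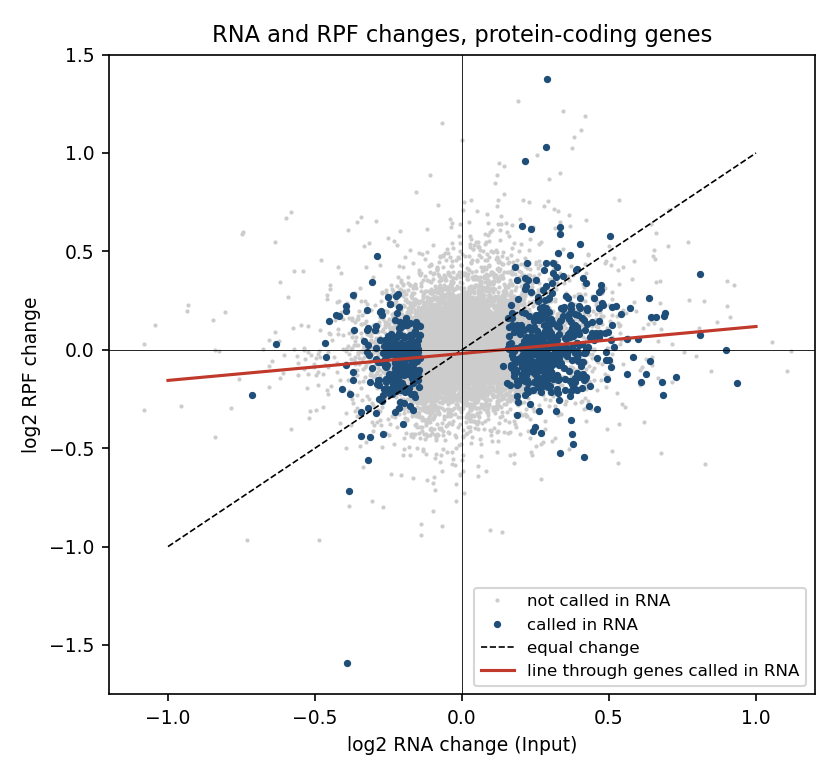
Log2 RPF change against log2 RNA change for the protein-coding genes tested (grey), with those called in RNA in blue, the line through them in red (slope 0.137) and the line of equal change dashed; 4 genes lie outside the axes. The blue points spread about 0 on the RPF axis on both sides, and IGF2BP3 is the lowest point.

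Genes whose transcript rose without a gain in footprints, which were slightly lower, include ACAD11, TRO and AMY2B. ACAD11, a mitochondrial acyl-CoA dehydrogenase, had 55.3, 64.5 and 55.7 Input CPM in siControl and 85.5, 83.7 and 82.0 CPM in siIGF2BP3. ACAD11 footprints were at 27.9, 29.2 and 28.2 CPM in siControl and 27.1, 26.9 and 26.9 CPM in siIGF2BP3, and its log2 TE change was -0.59 ± 0.09 (edgeR adjusted p = 0.00176). TRO, which encodes the adhesion protein trophinin, had a log2 RNA change of 0.68 ± 0.10 with an RPF change of -0.16 ± 0.09. AMY2B, an amylase gene, had an RNA change of 0.73 ± 0.18 with an RPF change of -0.14 ± 0.05. Reads of ACAD11 may be shared with a readthrough gene, and those of AMY2B with its near-identical paralogues, so both are uncertain.

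Other genes moved in both assays. SLC2A3, the glucose transporter GLUT3, had 1435, 1588 and 1534 Input CPM in siControl and 1232, 1170 and 1203 CPM in siIGF2BP3, and its RPF level went from 993, 1041 and 1038 to 722, 764 and 795 CPM. It was lower in every siIGF2BP3 library of both assays, and the log2 TE change of -0.09 ± 0.07 did not pass the test. OXR1, an oxidation resistance gene, fell in RNA by 0.38 and in RPF by 0.72 on the log2 scale. DNAJB9, an ER co-chaperone, fell by 0.32 and 0.30. CYP4F3, ZDHHC21 and MORC3 rose in both, with log2 RNA changes of 0.33, 0.33 and 0.32 and RPF changes of 0.62, 0.59 and 0.42. In AFF4, a scaffold of the super elongation complex, and CFDP1 the footprints rose beyond the transcript, with log2 RPF changes of 0.63 and 0.61 on RNA changes of 0.20 and 0.23.

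Seen from the footprints, the transcript moved less. The 94 genes that rose in RPF had a median log2 RPF change of 0.45 and a median RNA change of 0.09, with the same sign in 69. The 104 that fell had a median RPF change of -0.41 and a median RNA change of -0.08, with the same sign in 74. RNA was called in the same direction for 14 and 9 of them. These genes were chosen by their RPF change, so a larger RPF than RNA median follows in part from the choice. With siIGF2BP3 RPF replicate 1 left out, 505 of 947 genes that rose in RPF and 942 of 1517 that fell had an RNA change of the same sign.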

How the data were processed

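Per the labels and the study's methods, reads were trimmed with Cutadapt, aligned to hg38 with STAR and counted per gene with featureCounts; versions, strand setting and the making of the Input libraries are not given in the sources used here. The authors deposited unscaled estimated counts, many of them fractional, which were rounded to whole numbers. Names and types came from GENCODE release 44 (99.2% of identifiers matched), exon lengths from the files, and coding and UTR lengths from 1 transcript per gene.

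Genes passing filterByExpr in both assays (13395) were fitted with edgeR 4.0.16 (R 4.3.3), with TMM factors within each assay, robust quasi-likelihood tests of the assay by knockdown interaction and Benjamini-Hochberg adjustment over all of them (threshold 0.05). RNA and RPF used 6 libraries each. The study's methods name DESeq2 for TE, used here (1.42.0) as an alternative. The error used is the spread between libraries, which includes sampling noise, and reads carried no molecular identifiers. Mean chi-square per protein-coding gene between libraries of a group was 2.06 to 3.92 in Input and 1.06 to 1.86 in siControl RPF, where 1 is sampling noise alone. CPM are scaled to the genes tested. Models were tested on simulated data.

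Genes were named by rule: the IGF2BP family, the 12 largest rises and falls in TE among called genes with a mean of at least 5 CPM in each assay and no overlap of ratios, up to 4 called members per list, and 6 genes per combination of RNA, RPF and TE calls with the largest RNA change. JUN and DUSP6 were chosen after their values were seen. The members and lists were chosen with earlier results of these data known. Alternatives were other scaling factors and filters, limma 3.58.1 (voom weights, log2 ratios with pseudocount 0.5), offsets for length and GC, replicate blocks, whole counts in at least 9 libraries, summed siControl RPF libraries and each library left out. Summing combined with leaving out siIGF2BP3 RPF replicate 1, and the slope without IGF2BP3, were chosen after seeing the data.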

Additional observations from a re-analysis of the deposited data

How the results depend on the processing

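For the TE change, the 269 calls became 768 with the GC offset, 1512 with voom quality weights, 113 with a replicate block by culture, 132 with siControl RPF replicates 2 and 3 summed, 1016 with these summed and siIGF2BP3 RPF replicate 1 left out, 68 among genes with whole counts, 60 with an absolute log2 change of at least 0.58, and 0 by limma on log2 ratios (1388 at an unadjusted p under 0.05, against 1926 by edgeR). Leaving out 1 library gave 117 to 1261, the highest without siIGF2BP3 RPF replicate 1 and otherwise at most 277. It was under 180 without siControl Input replicate 1 or 3, any siControl RPF library, siIGF2BP3 Input replicate 1 or 3, or siIGF2BP3 RPF replicate 2. For the RNA change, calls (776 of all protein-coding genes tested in Input) became 257 with whole counts and 34 with the log2 minimum, and 389 to 812 with 1 library left out, the lowest without siControl Input replicate 3, with 425 when siIGF2BP3 Input replicate 3 was left out. For the RPF change, calls (203) became 424 by DESeq2, 783 with the GC offset, 2382 with voom weights, 6 summed, 2211 summed and without that library, 81 with whole counts, 54 with the log2 minimum, and 4 to 2527 with 1 library left out (8 or fewer without any siControl RPF library, 22 and 47 without siIGF2BP3 RPF replicates 2 and 3, and the highest without its replicate 1). The TE change by exon length (-0.136) was -0.019 with the length offset and -0.155 to -0.091 with 1 library left out. The TE change by exon GC (0.024) was -0.128 summed and without siIGF2BP3 RPF replicate 1, and -0.129 to 0.115 with 1 library left out. The TE change by RPF/Input ratio (0.052) was 0.012 with the length offset, 0.01 with siControl ratios, and 0.022 to 0.072 with 1 library left out. The RPF change per unit of RNA change (0.137) was 0.249 with whole counts, 0.008 for large RNA changes, and 0.104 to 0.168 with 1 library left out. It could not be computed from limma on ratios. Median signs were shared by 30 to 34 of the 34 lists with 1 library left out. Whole counts turned elongation and termination factors (-0.07), kinesins (-0.064) and hepatocyte markers (-0.011), and leaving out siControl Input replicate 2 turned the blood, fibroblast and endothelial markers (-0.275 to 0.096 over the libraries left out). With 1 library left out IGF2BP1 ranged from -0.086 to 0.012 and DNAJB9 from -0.021 to 0.088. IGF2BP1 had TE changes of 0.003 (GC offset), 0.026 (length offset), 0.001 (without siIGF2BP3 Input replicate 1) and 0.012 (without siIGF2BP3 RPF replicate 2), and DNAJB9 -0.008 (length offset) and -0.021 (without siIGF2BP3 Input replicate 2). Where no construction shows it, the cause was not tested. Of 1795 values of 69 named genes, 1439 kept direction and side of the threshold and 346 lost the call. Deviations from the group mean correlated with r from -0.133 to 0.115 between same-numbered libraries and from -0.097 to 0.116 between libraries of unlike number. These values do not settle whether equal numbers mark 1 culture, and the labels do not say. A replicate block by number gave 213 TE calls.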

Other observations

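Further lists were described by counts alone. Nucleoporins, importins and exportins (46 genes) had a median log2 TE change of 0.00 with all libraries and 0.05 without siIGF2BP3 RPF replicate 1, and went from 2 rises (XPO4 and IPO4) to 10, or to 0 with siControl RPF replicates 2 and 3 summed. Their summed RPF level was 7661, 7685 and 7692 CPM in siControl and 7197, 8189 and 8233 CPM in siIGF2BP3, with replicate 1 below and the others above the siControl libraries. Cholesterol and fatty acid synthesis genes (31) had 0 TE calls by edgeR (1 rise and 5 falls at an unadjusted p under 0.05, 4 adjusted falls without that library) and a median of -0.06, on median changes of -0.05 in RNA and -0.13 in RPF, so both assays were lower. Replication-dependent histones (14 tested of 64 in the files) had 0 TE calls by edgeR in either setting (0 also at an unadjusted p under 0.05 with all libraries, and 0 by DESeq2) and medians of -0.10 and -0.24. Aminoacyl-tRNA synthetases (37) had a median of -0.08 and 1 fall (MARS1), the 398 genes named ZNF had 4 rises and 2 falls with a median of -0.04, and 220 solute carriers had 2 rises, those of the zinc transporter SLC30A5 (0.50) and the cystine transporter SLC7A11 (0.42). Among all members 0.840% rose and 1.44% fell (4.73% and 5.97% without siIGF2BP3 RPF replicate 1). An unadjusted p under 0.05 was found for 1926 of the 11785 members. With siControl RPF replicates 2 and 3 summed the fall of MARS1 and the rise of SLC7A11 were not called, and 2 rises and 2 falls were called among ZNF genes.

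Proteasome subunits (37), glycolysis and TCA cycle enzymes (38), secreted plasma proteins (55), initiation factors (40) and elongation and termination factors (17) had 0 TE calls by edgeR with all libraries, with medians of 0.06, 0.01, 0.07, 0.05 and 0.12. At an unadjusted p under 0.05 the rises and falls were 3 and 0, 2 and 2, 7 and 1, 9 and 2, and 3 and 0. Of all 11785 members, 1926 had an unadjusted p under 0.05 in either direction, so these counts alone do not set the lists apart. DESeq2 called 1 rise among proteasome subunits and 3 among plasma proteins. Without siIGF2BP3 RPF replicate 1 secreted plasma proteins had 8 rises and 1 fall and initiation factors 8 rises and 1 fall (4.73% and 5.97% of members).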
